A study of Homo sapiens with 14 samples.

Results

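The complement genes described here were the components C1R, C1S, C3, CFB and C5, the soluble inhibitor CFI and the membrane regulators CD46, CD55 and CD59. They are 9 of the 57756 genes in the isoform tables of this series, and they were found by gene symbol in all 14 libraries. The symbols covered 10 gene identifiers and 129 isoforms, because CFB names both the gene ENSG00000243649 and a readthrough from the neighbouring locus, ENSG00000244255. A gene's level was the sum of the FPKM (fragments scaled to transcript length and sequencing depth) of its isoforms, and an isoform's usage was its percentage of that sum. The filter, a mean of at least 1 FPKM over the libraries, was passed by 8 of the 9 genes; CFI and the CFB readthrough were below it.

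All libraries came from A549, a human lung carcinoma line grown in RPMI-1640 medium with fetal bovine serum, and the study asked how wild-type and S34F U2AF1 alter splicing. In the tested groups, endogenous U2AF1 was knocked down with siRNA and one of 2 U2AF1 isoforms, named v1 and v3, was overexpressed by virus. These groups were v1 S34F, v3 S34F, v1 wild type and v3 wild type. The other groups were empty vector with U2AF1 siRNA (knockdown), empty vector with control siRNA (control siRNA) and untreated A549 cells. Each of the 7 groups had 2 libraries. The labels do not say whether a pair was grown as separate cultures, and the spread behind each p-value may therefore be technical.

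Complement is a cascade of plasma proteases and membrane-bound products. C1R and C1S are the proteases of the C1 complex that starts the classical pathway, CFB supplies the protease of the alternative-pathway convertase, C3 is the central component that all pathways cleave, and C5 begins the terminal steps that build the membrane attack complex. CFI cleaves C3b and C4b, CD46 is its membrane cofactor, CD55 speeds the decay of convertases, and CD59 blocks the last step of membrane attack. Lung epithelial cells make several soluble components and carry the membrane regulators. U2AF1 reads the AG at the 3′ end of introns, and S34F is a recurrent mutation in lung adenocarcinoma and myeloid neoplasms that alters which base is favoured just before that AG.

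U2AF1 itself had 16.2 and 28.9 FPKM in knockdown libraries, against 116.9 and 118.9 FPKM in control siRNA libraries. The 4 S34F libraries held between 2114 and 3852 FPKM of U2AF1 and the 4 wild-type libraries between 2351 and 3313 FPKM, and gene FPKM does not separate construct from endogenous RNA. These levels were all above those of control siRNA, so wild-type re-expression, as named below, was an overexpression and not a return to the control level. Relative depth of the libraries lay between 0.798 and 1.20. In v1 S34F replicate 2, 33.1% of the FPKM sum was in AL132768.1, and in knockdown replicate 1, 8.81% was in MIR1260B; in the other libraries the highest isoform held between 0.494% and 1.06%. All 6 epithelial markers averaged at least 1 FPKM and summed to between 3825 and 4762 FPKM, led by KRT7 at a mean of 1447 FPKM. The summed levels of the other marker lists were at most 0.126 FPKM for endothelium, 0.468 FPKM for hepatocytes, 2.61 FPKM for leukocytes (led by CD14, mean 1.59 FPKM) and 10.2 FPKM for fibroblasts (led by COL1A1, mean 7.84 FPKM). Of the markers tested, none passed the limma test in any comparison.

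The membrane regulators stood at the top of the complement genes and CFB and CFI at the bottom. On the FPKM scale, over the 14 libraries, CD59 averaged 189 ± 24.0, CD46 65.5 ± 9.02, CD55 54.5 ± 18.8, C1S 38.3 ± 7.90, C1R 24.6 ± 7.20, C5 16.3 ± 6.05, C3 14.7 ± 4.97, CFB 1.98 ± 0.933 and CFI 0.323 ± 0.171 FPKM (SD, n = 14). The ranges of CD59 and CD46 did not overlap, nor did those of C3 and CFB or of CFB and CFI. Every other pair of neighbours in this order overlapped.

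**Figure D1:**
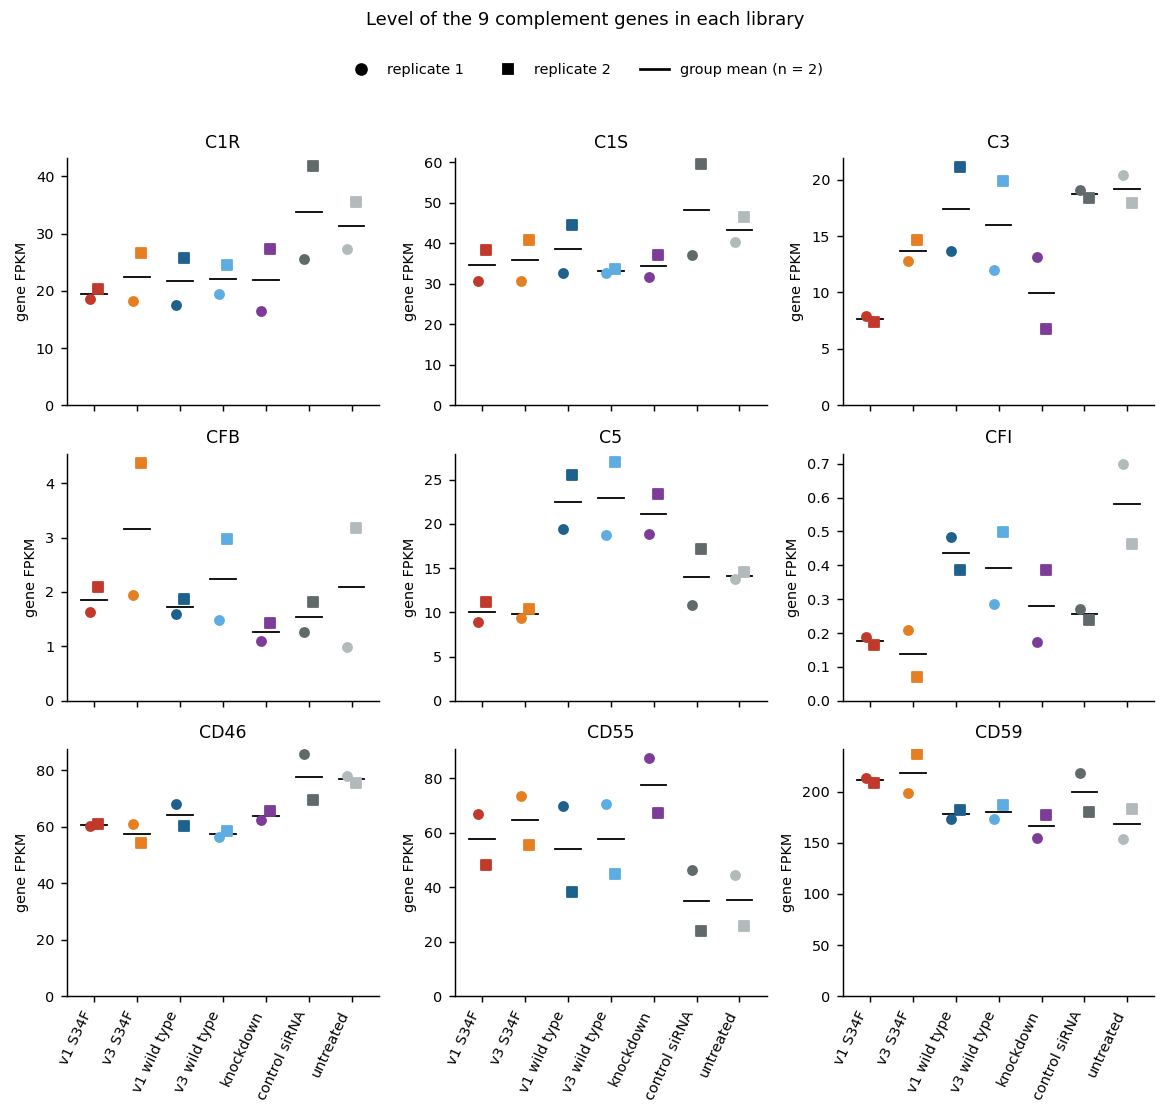
Gene FPKM (vertical axes, from 0) of the 9 complement genes in each library; circles are replicate 1, squares replicate 2 and lines the group means (n = 2). C5 lies between 8.89 and 11.2 FPKM in the 4 S34F libraries, below all 4 wild-type libraries at 18.8 to 27.0 FPKM, and CD55 is lower in replicate 2 than in replicate 1 in all 7 groups.

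Of the 8 genes tested, 1 passed an adjusted p of 0.05 between S34F and wild type, C5, and it fell; of all 14233 genes tested 1.85% passed. None of the 8 passed between knockdown and control siRNA, where 2.85% of all genes did, between wild-type re-expression and knockdown (1.43%) or between wild-type re-expression and control siRNA (0.436%). At an unadjusted p under 0.05 by limma those 3 comparisons held 4, 1 and 3 of the 8 genes. Over all 14233 genes the counts were 2689, 2242 and 1940. S34F against wild type held 3 of the 8 at that threshold (CD59, C5 and C3), beside 2266 of all 14233. The S34F effect in v3 minus that in v1, v3 against v1 wild type, and control siRNA against untreated called 0 of 8 genes with limma and 0 of all genes, and 0 of the 8 had an unadjusted p under 0.05. Over all 14233 genes, 101, 150 and 730 had one. The median log2 difference of the 8 genes was −0.03 between S34F and wild type, beside 0.02 over all genes, and −0.26 between knockdown and control siRNA, beside −0.01 over all genes. The 9 genes were chosen with earlier results on these libraries known, so these counts describe the genes and are not independent support.

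**Figure D2:**
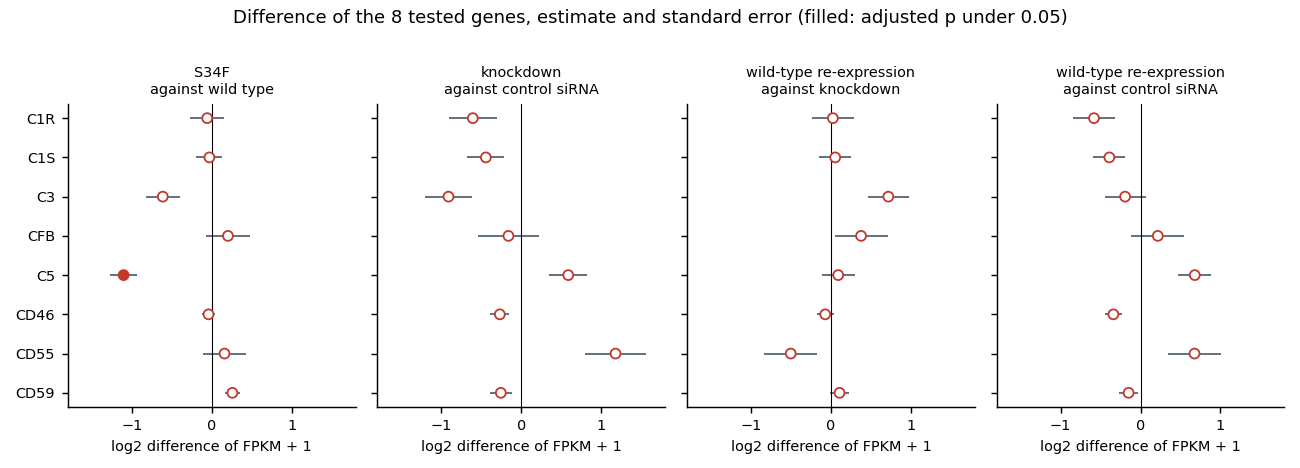
Difference in log2(FPKM + 1) for the 8 tested genes in 4 comparisons (points are limma estimates, bars their standard errors, filled points passed an adjusted p of 0.05). C5 at −1.10 between S34F and wild type is the filled point, and CD55 at 1.18 between knockdown and control siRNA is the highest point of its panel.

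The proteases of the C1 complex were expressed in every library. C1R (ENSG00000159403; GRCh37, chr12:7187513-7245203) averaged 19.4 ± 1.24 FPKM in v1 S34F, 22.4 ± 5.90 in v3 S34F, 21.6 ± 5.72 in v1 wild type, 22.0 ± 3.49 in v3 wild type, 21.8 ± 7.64 in knockdown, 33.8 ± 11.5 in control siRNA and 31.4 ± 5.79 FPKM in untreated cells (SD, n = 2 each). C1S (ENSG00000182326; GRCh37, chr12:7096351-7178336) averaged 34.5 ± 5.29, 35.7 ± 7.10, 38.6 ± 8.42, 33.2 ± 0.613, 34.3 ± 3.90, 48.2 ± 15.9 and 43.4 ± 4.28 FPKM in the same order of groups. Both genes thus had their highest group means without knockdown. Knockdown and control siRNA libraries overlapped in both genes. Some groups did not overlap: both v3 wild-type libraries lay below both control siRNA libraries in each gene. In C1R, the difference on the log2(FPKM + 1) scale was −0.61 ± 0.30 (SE) between knockdown and control siRNA, with an adjusted p of 0.308 by limma. For C1S that difference was −0.44 ± 0.23, with an adjusted p of 0.335.

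Same-numbered libraries deviated together in this series, and C1R, C1S, C5 and CFB were higher in replicate 2 than in replicate 1 in 7 of 7 groups, while CD55 was lower in 7 of 7. With the replicate number as a block, 3 of the 8 genes passed between knockdown and control siRNA (C1R, C5 and CD55), where 11.8% of all genes passed. With the same block, 1 of 8 passed between wild-type re-expression and knockdown (CD55; 7.52% of all genes) and 3 of 8 between wild-type re-expression and control siRNA (C1R, C5 and CD55; 3.84% of all genes). C1R then fell in the knockdown (adjusted p = 0.0205) and was lower in wild-type re-expression than in control siRNA by −0.58 on the log2 scale (adjusted p = 0.0292 with the block, 0.358 without it).

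The isoform makeup of the proteases was less certain than their levels. For C1R, 3 isoforms not in GENCODE release 29 (ENST00000542220, ENST00000602480 and ENST00000602286) held between 59.3% and 87.5% of the FPKM. Usage of ENST00000602286 was between 0.00165% and 0.00628% in v1 S34F replicate 2, v3 S34F replicate 2, v3 wild-type replicate 2 and knockdown replicate 1, and between 9.27% and 25.2% in the other 10 libraries. Libraries of the same group thus differed on whether this isoform was present. In C1S, the protein-coding isoforms ENST00000360817 and ENST00000328916 averaged 40.6% and 31.7% of the FPKM. None of these isoforms passed the test in any comparison. Over all complement genes, 0 of the 35 isoforms tested passed in the S34F effect of v3 minus v1 (0% of all isoforms), in wild-type re-expression against control siRNA (0.00479%), in v3 against v1 wild type (0.00479%) or in control siRNA against untreated (0.00959%), and 0, 1, 0 and 2 of them had an unadjusted p under 0.05 by limma. Of all 41727 isoforms, 1325, 2640, 1484 and 2145 did so.

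C3 (ENSG00000125730; GRCh37, chr19:6677715-6730573) was measured at 7.89 and 7.43 FPKM in v1 S34F and at 12.8 and 14.7 FPKM in v3 S34F, against 13.7 and 21.2 FPKM in v1 wild type and 12.01 and 19.9 FPKM in v3 wild type. The v1 S34F libraries lay below both v1 wild-type libraries, whereas the v3 S34F libraries lay within the range of the v3 wild-type ones. Knockdown libraries held 13.2 and 6.75 FPKM of C3, against 19.1 and 18.3 FPKM in control siRNA and 20.4 and 18.0 FPKM in untreated cells. Both knockdown libraries were below all 4 libraries without knockdown, and the 2 knockdown libraries differed from each other.

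None of these C3 differences passed the test over all genes. On the log2(FPKM + 1) scale the S34F minus wild-type difference was −0.61 ± 0.21 (adjusted p = 0.182), the knockdown minus control siRNA difference −0.91 ± 0.30 (adjusted p = 0.129) and the wild-type re-expression minus knockdown difference 0.72 ± 0.26 (adjusted p = 0.210). The S34F effect in v3 exceeded that in v1 by 0.89 ± 0.42 (unadjusted p = 0.0569, adjusted p = 1 by limma), so a difference between the constructs was not shown. The full-length coding isoform ENST00000245907 held a mean of 72.0% of C3 FPKM, between 53.4% and 89.8% in single libraries, and its usage passed in no comparison.

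CFB (ENSG00000243649; GRCh37, chr6:31913427-31919861) was low. It averaged 1.86 ± 0.328 FPKM in v1 S34F, 3.16 ± 1.71 in v3 S34F, 1.73 ± 0.195 in v1 wild type, 2.23 ± 1.06 in v3 wild type, 1.26 ± 0.238 in knockdown, 1.54 ± 0.391 in control siRNA and 2.09 ± 1.54 FPKM in untreated cells (SD, n = 2 each). The spread within v3 S34F and within untreated cells was larger than most differences between groups, and the S34F minus wild-type difference was 0.20 ± 0.27 on the log2 scale (adjusted p = 0.784). The readthrough ENSG00000244255 reached at most 0.184 FPKM, but it overlaps CFB, so the split of reads between them is uncertain. Of the CFB isoforms, coding ENST00000425368 averaged 24.2% and the retained-intron isoforms ENST00000482312 and ENST00000467360 averaged 13.8% and 10.7%; at this level none of the isoform differences passed the test.

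C5 (ENSG00000106804; GRCh37, chr9:123714616-123812554) was lower with S34F than with wild type in both constructs. Its level was 8.89 and 11.2 FPKM in v1 S34F and 9.34 and 10.3 FPKM in v3 S34F, against 19.4 and 25.5 FPKM in v1 wild type and 18.8 and 27.0 FPKM in v3 wild type. All 4 S34F libraries were below all 4 wild-type libraries. The means were 9.93 ± 1.01 FPKM with S34F and 22.7 ± 4.19 FPKM with wild type (SD, n = 4 each), so S34F libraries held 43.8% of the wild-type level. As these are bulk libraries, less C5 RNA per cell and fewer cells that express it cannot be told apart.

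The C5 difference was −1.10 ± 0.17 on the log2(FPKM + 1) scale (limma, adjusted p = 0.0107), and S34F was lower in 2 of 2 constructs and in both replicate numbers. The S34F effect in v3 minus that in v1 was −0.04 ± 0.33 (adjusted p = 1), with v1 S34F at 44.6% of v1 wild type and v3 S34F at 42.9% of v3 wild type. Leaving out v1 wild-type replicate 2 gave −1.01 (adjusted p = 0.0584) and leaving out v3 wild-type replicate 2 gave −0.98 (adjusted p = 0.0520), which ended the call; these are the 2 libraries with the most C5. With the replicate block the adjusted p was 0.000309, where 7.98% of all genes passed.

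Cells without a U2AF1 construct had C5 levels at or below those of the wild-type groups. C5 stood at 18.8 and 23.3 FPKM in knockdown, against 10.8 and 17.1 FPKM in control siRNA and 13.7 and 14.6 FPKM in untreated cells. Knockdown libraries were above those of both groups without knockdown, and the S34F range overlapped the control siRNA range. The knockdown minus control siRNA difference was 0.59 ± 0.24 (adjusted p = 0.212, or 0.0224 with the replicate block). The wild-type re-expression minus control siRNA difference was 0.68 ± 0.20 (adjusted p = 0.183, or 0.0149 with the block), while that of wild-type re-expression minus knockdown was 0.09 ± 0.20 (adjusted p = 0.870).

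At the isoform level the lower C5 lay mostly in the full-length coding isoform. ENST00000223642, of 5462 bases, stood at 7.02 and 6.89 FPKM in v1 S34F and 6.95 and 6.41 FPKM in v3 S34F, against 16.9 and 20.2 FPKM in v1 wild type and 15.6 and 20.8 FPKM in v3 wild type. Its S34F mean was 37.1% of its wild-type mean. As a share of C5 FPKM it differed by −12.3 ± 4.62 points between S34F and wild type and did not pass (limma, adjusted p = 0.318). ENST00000460578, a transcript of 521 bases annotated without a coding sequence, stood at 1.15 and 2.70 FPKM in v1 S34F and 2.05 and 2.81 FPKM in v3 S34F, against 1.06 and 2.14 FPKM in v1 wild type and 1.74 and 2.99 FPKM in v3 wild type. The S34F and wild-type ranges of the short transcript overlapped almost fully.

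As a share of C5 FPKM, the short transcript made up 12.9% and 24.2% in v1 S34F and 21.9% and 27.3% in v3 S34F, against 5.47% and 8.37% in v1 wild type and 9.25% and 11.1% in v3 wild type. All 4 S34F shares were above all 4 wild-type shares. The difference was 13.0 ± 2.70 percentage points (limma over 41727 isoforms, adjusted p = 0.0705, or 0.0368 with the replicate block, where 0.995% of all isoforms passed). The short transcript is thinly covered: in the authors' deposited table its 1.15 FPKM in v1 S34F replicate 1 has bounds of 0.112 and 2.18 FPKM.

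**Figure D3:**
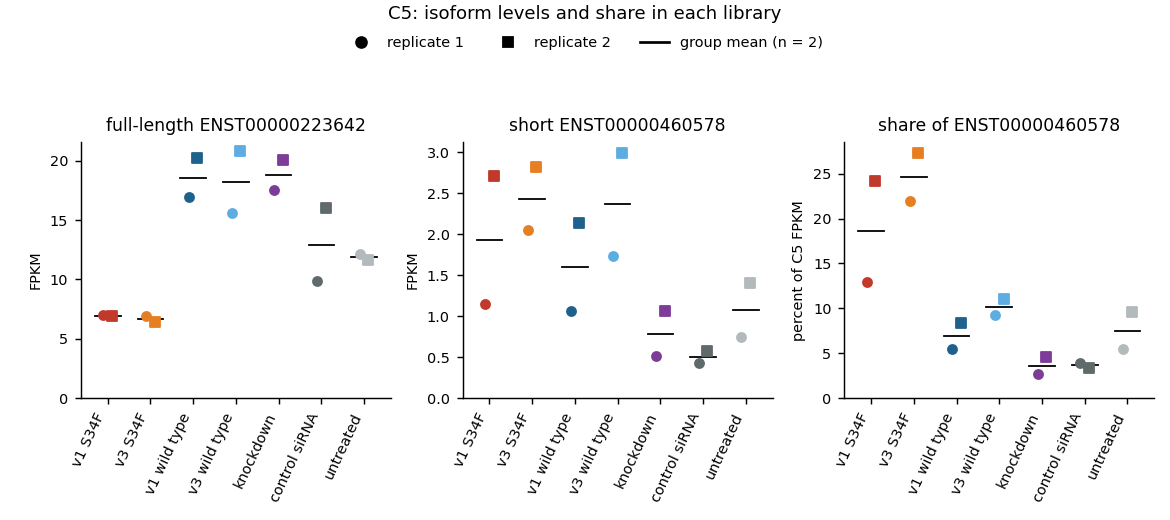
C5 isoforms in each library: FPKM of the full-length isoform (left), FPKM of the short non-coding transcript (middle) and the short transcript's percentage of C5 FPKM (right); circles are replicate 1, squares replicate 2 and lines group means (n = 2). The full-length isoform is at 6.41 to 7.02 FPKM in the 4 S34F libraries and at 15.6 to 20.8 FPKM in the 4 wild-type libraries, whereas the short transcript overlaps between them.

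CFI (ENSG00000205403; GRCh37, chr4:110661852-110723335), the protease that inactivates C3b with CD46 as cofactor, was below the filter and was not tested. Its level averaged 0.176 ± 0.0168 FPKM in v1 S34F, 0.139 ± 0.0979 in v3 S34F, 0.435 ± 0.0680 in v1 wild type, 0.392 ± 0.148 in v3 wild type, 0.280 ± 0.150 in knockdown, 0.255 ± 0.0230 in control siRNA and 0.580 ± 0.166 FPKM in untreated cells (SD, n = 2 each). S34F libraries were below the wild-type libraries of the same construct in both constructs, at a level where isoform estimates moved between 0% and 100% from library to library.

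CD46 (ENSG00000117335; GRCh37, chr1:207925402-207968858) passed the test in no comparison by its total level, whereas the usage of its exons did. Its level was 60.5 and 61.0 FPKM in v1 S34F, 60.9 and 54.2 FPKM in v3 S34F, 68.1 and 60.4 FPKM in v1 wild type, 56.5 and 58.6 FPKM in v3 wild type, 62.4 and 65.5 FPKM in knockdown, 85.9 and 69.4 FPKM in control siRNA and 78.0 and 75.7 FPKM in untreated cells. The 10 libraries with U2AF1 siRNA were all below the 4 without it. The knockdown minus control siRNA difference was −0.27 ± 0.12 (adjusted p = 0.261) and the wild-type re-expression minus control siRNA difference −0.34 ± 0.10 (adjusted p = 0.190), so neither passed.

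CD46 isoforms differ in short exons that code for a serine, threonine and proline-rich stretch next to the membrane, and in the exon that sets the cytoplasmic tail. With the 93-base exon the protein ends in the tail known as CYT-1, and without it in CYT-2. The following sequences show the exons that the CD46 result turns on, read from GENCODE release 29 transcripts (GRCh38, plus strand). For the 45-base exon (chr1:207767759-207767823 with its 20 intron bases) and the 42-base exon (chr1:207770301-207770362 likewise), lower-case letters are the end of the intron before the exon and capitals are the exon. For the 93-base exon (chr1:207790253-207790304) only the coding part in ENST00000367042 is printed, and capitals mark its stop codon.
CD46 45-base exon: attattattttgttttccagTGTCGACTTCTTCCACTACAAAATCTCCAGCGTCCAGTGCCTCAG
CD46 42-base exon: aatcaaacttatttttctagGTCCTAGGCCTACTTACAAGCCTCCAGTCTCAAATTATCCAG
CD46 93-base exon: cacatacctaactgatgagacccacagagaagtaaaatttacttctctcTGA

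The base before the AG is C at the 45-base exon and T at the 42-base exon. Exon usage was the percentage of the FPKM of isoforms spanning an exon that came from isoforms holding it, a measure added after the data were seen. It was tested over 15645 exons of isoforms whose identifier and length matched release 29. In the S34F effect of v3 minus v1, wild-type re-expression against control siRNA, v3 against v1 wild type, and control siRNA against untreated, 0 of 6 complement exons passed by limma, beside 0.0384%, 0.0128%, 0.0128% and 0% of all exons, and 1, 0, 0 and 0 had an unadjusted p under 0.05. Of all 15645 exons, 623, 949, 656 and 757 did so.

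Usage of the 93-base exon, the one of the CYT-1 tail, was lowest after knockdown. It was 45.0% and 39.7% in v1 S34F and 46.0% and 44.5% in v3 S34F, and 48.2% and 48.4% in v1 wild type and 56.1% and 55.1% in v3 wild type. In knockdown it was 32.4% and 23.4%, against 58.6% and 57.0% in control siRNA and 60.4% and 58.0% in untreated cells. Both knockdown libraries were below the other 12, and all 4 S34F libraries were below all 4 wild-type libraries.

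The 93-base exon fell by 29.9 ± 5.23 percentage points in knockdown relative to control siRNA (limma, adjusted p = 0.0477), where 1 of 6 complement exons and 0.582% of all exons passed. It rose by 24.0 ± 4.53 points in wild-type re-expression relative to knockdown (adjusted p = 0.0417), where 2 of 6 complement exons and 1.25% of all exons passed. Its S34F minus wild-type difference was −8.15 ± 3.69 points (adjusted p = 0.328), where 0 of 6 complement exons passed by limma, 1 had an unadjusted p under 0.05, and 1.8% of all exons passed. Of all 15645 exons, 2495 had an unadjusted p under 0.05 in that comparison. Both calls were close to the threshold: leaving out any 1 of the 14 libraries ended each, with adjusted p between 0.0647 and 0.222 for the first and between 0.0564 and 0.267 for the second, and an arcsine scale ended the first (adjusted p = 0.0513).

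The 45-base exon was also used least in knockdown cells. Its usage was 89.1% and 90.3% in v1 S34F, 86.0% and 94.2% in v3 S34F, 84.1% and 91.9% in v1 wild type and 86.5% and 92.9% in v3 wild type. Knockdown libraries stood at 66.6% and 62.6%, against 82.9% and 80.1% in control siRNA and 86.0% and 77.4% in untreated cells. It rose by 24.3 ± 4.06 points in wild-type re-expression relative to knockdown (adjusted p = 0.0321), and the knockdown minus control siRNA difference was −16.9 ± 4.69 points (adjusted p = 0.158). The rise was called in 7 of the 14 fits that left out 1 library, with adjusted p up to 0.185, and was not called on an arcsine scale (adjusted p = 0.0737); the calls were lost without either knockdown library, either v1 S34F library, either v3 wild-type library or v1 wild-type replicate 2.

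The 42-base exon, whose intron ends in TAG, was used at 90.1% and 90.5% in knockdown, against 94.1% and 92.4% in control siRNA. With S34F it was used at 82.1% and 69.2% in v1 and 91.3% and 85.6% in v3, against 91.2% and 85.6% in v1 wild type and 95.3% and 87.1% in v3 wild type. The S34F minus wild-type difference was −7.72 ± 3.41 points and did not pass (unadjusted p = 0.0496, adjusted p = 0.313).

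Among whole CD46 isoforms, 1 moved past the threshold. ENST00000357714, which lacks the 45-base and 93-base exons, held 19.2% and 26.2% of CD46 FPKM in knockdown, 4.70% and 4.36e-05% in v1 wild type, 6.46% and 0.00916% in v3 wild type, and 9.50% and 9.97% in control siRNA. In untreated cells it stood at 0.0131 and 3.24 FPKM. Libraries of the same group thus differed on whether this isoform was present, in v1 wild type, v3 wild type and untreated cells. It fell by 19.9 ± 2.89 points in wild-type re-expression relative to knockdown (adjusted p = 0.0365), where 1 of 35 complement isoforms and 0.273% of all isoforms passed. ENST00000367042, which holds all 3 exons, was used at 20.4% and 17.5% in knockdown, against 44.3% and 44.8% in control siRNA. Its knockdown minus control siRNA difference was −25.6 ± 3.90 points (adjusted p = 0.0527), where 0 of 35 complement isoforms passed by limma, 4 had an unadjusted p under 0.05, and 0.129% of all isoforms passed. Of all 41727 isoforms, 4281 had an unadjusted p under 0.05 in that comparison. ENST00000357714 and ENST00000367042 were also used more in control siRNA than in untreated cells, by 7.58 ± 3.34 and 9.88 ± 3.90 points. Neither difference passed by limma (unadjusted p = 0.0479 and 0.0309, adjusted p = 0.957 and 0.952). ENST00000354848, with the 45-base and 42-base exons and without the 93-base exon, averaged 21.1% and passed in no comparison. The call of ENST00000357714 was kept in 1 of 14 fits that left out a library, that without knockdown replicate 1 (adjusted p = 0.0478), and was lost on an arcsine scale (adjusted p = 0.184).

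**Figure D4:**
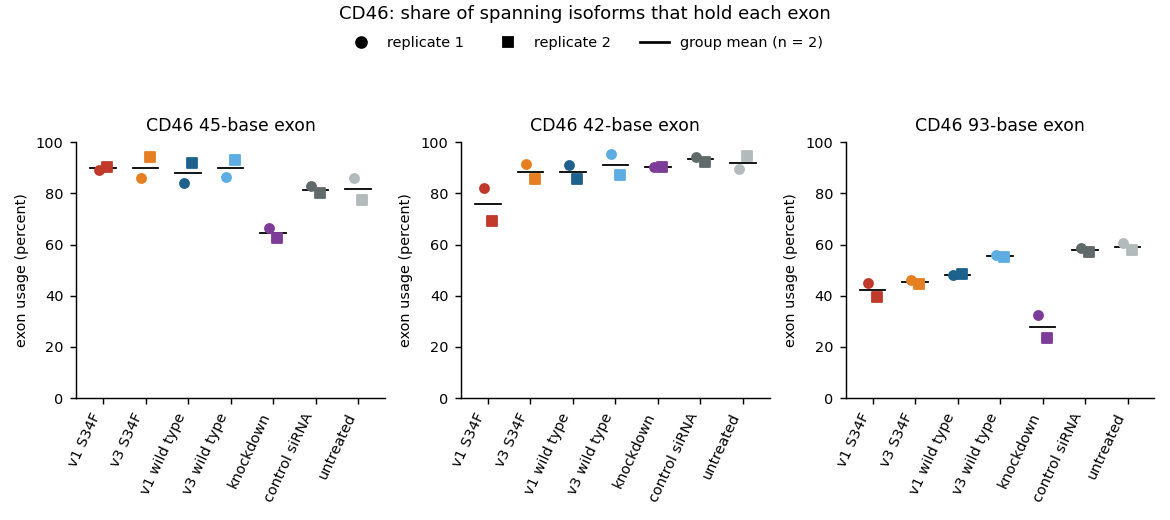
Usage of 3 CD46 exons in each library, as percent of the FPKM of spanning isoforms (vertical axes, 0 to 100); circles are replicate 1, squares replicate 2 and lines group means (n = 2). The 93-base exon is at 32.4% and 23.4% in knockdown and the 45-base exon at 66.6% and 62.6%, each below the other 12 libraries, while the 42-base exon in knockdown lies within the range of the others.

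CD55 (ENSG00000196352; GRCh37, chr1:207494853-207534311) was higher in the groups with U2AF1 siRNA. Its level was 67.1 and 48.2 FPKM in v1 S34F, 73.4 and 55.7 FPKM in v3 S34F, 69.8 and 38.1 FPKM in v1 wild type and 70.7 and 44.7 FPKM in v3 wild type. In knockdown it was 87.5 and 67.4 FPKM, against 46.2 and 24.0 FPKM in control siRNA and 44.5 and 25.8 FPKM in untreated cells. The mean was 2.20 times as high in knockdown as in control siRNA, and in every group replicate 2 was below replicate 1.

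On the log2(FPKM + 1) scale the CD55 difference between knockdown and control siRNA was 1.18 ± 0.39, with an adjusted p of 0.131 by limma and of 0.00159 with the replicate block. Wild-type re-expression minus knockdown was −0.50 ± 0.33 (adjusted p = 0.501, or 0.0349 with the block), and wild-type re-expression minus control siRNA was 0.68 ± 0.33 (adjusted p = 0.408, or 0.0171 with the block). S34F minus wild type was 0.16 ± 0.27 (adjusted p = 0.843). CD55 thus passed in 3 comparisons only with the block.

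In CD55, isoforms ENST00000367067, ENST00000314754 and ENST00000367064 averaged 37.7%, 32.2% and 12.3% of the FPKM, and none passed in any comparison. Usage of a 118-base CD55 exon was 85.8% and 71.4% in knockdown, against 93.4% and 95.7% in control siRNA. The knockdown minus control siRNA difference was −15.9 ± 4.24 points (limma, unadjusted p = 0.00442, adjusted p = 0.149). Wild-type re-expression minus knockdown was 14.6 ± 3.68 points (limma, adjusted p = 0.0998), so neither passed with all libraries. Without knockdown replicate 1 these differences were −23.1 and 21.8 points, in a fit with 1 knockdown library.

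CD59 (ENSG00000085063; GRCh37, chr11:33719807-33757991) had the highest level of the complement genes, and the usage of 1 of its isoforms passed between S34F and wild type. Its level was 213 and 208 FPKM in v1 S34F and 199 and 237 FPKM in v3 S34F, against 174 and 182 FPKM in v1 wild type and 173 and 187 FPKM in v3 wild type. All 4 S34F libraries were above all 4 wild-type libraries, by 0.26 ± 0.09 on the log2 scale, and the difference did not pass (adjusted p = 0.210). Knockdown libraries stood at 155 and 177 FPKM, against 218 and 180 FPKM in control siRNA and 154 and 183 FPKM in untreated cells.

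The isoforms ENST00000395850 and ENST00000351554 share a coding sequence of 384 bases and differ in the 5′ UTR. In release 29, ENST00000395850 holds a 116-base exon (GRCh38, chr11:33733495-33733610, minus strand) that ENST00000351554 lacks, and their first exons start at different positions. The deposited lengths of both isoforms differ from those of release 29, so this exon was not in the exon test. Another major isoform, ENST00000426650, also has 384 coding bases. It averaged 21.6% of CD59 FPKM and passed in no comparison.

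Usage of ENST00000351554, without the 116-base exon, was 13.9% and 8.27% in v1 S34F and 15.0% and 10.6% in v3 S34F, against 23.5% and 28.0% in v1 wild type and 25.7% and 30.1% in v3 wild type. It was 13.2% and 16.7% in knockdown, against 21.5% and 21.4% in control siRNA and 18.9% and 22.2% in untreated cells. The S34F and wild-type libraries did not overlap, nor did the knockdown and control siRNA libraries. ENST00000351554 fell by 14.9 ± 2.63 points in S34F relative to wild type (limma, adjusted p = 0.0438), where 1 of 35 complement isoforms and 0.681% of all isoforms passed.

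The other isoform of the pair, ENST00000395850, was used at 53.0% and 60.0% in v1 S34F and 50.5% and 54.8% in v3 S34F, against 45.5% and 42.2% in v1 wild type and 44.0% and 41.4% in v3 wild type. Its S34F minus wild-type difference was 11.3 ± 2.94 points and did not pass (adjusted p = 0.135). In FPKM, ENST00000351554 averaged 25.5 ± 5.92 with S34F and 48.1 ± 6.86 with wild type, and ENST00000395850 averaged 117 ± 13.3 with S34F and 77.3 ± 1.23 with wild type (SD, n = 4 each). The call of ENST00000351554 was kept in 1 of the 14 fits that left out a library, that without v1 S34F replicate 1 (adjusted p = 0.0487); in the other 13 the adjusted p reached 0.167. In those fits the difference stayed between −16.3 and −13.4 points.

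**Figure D5:**
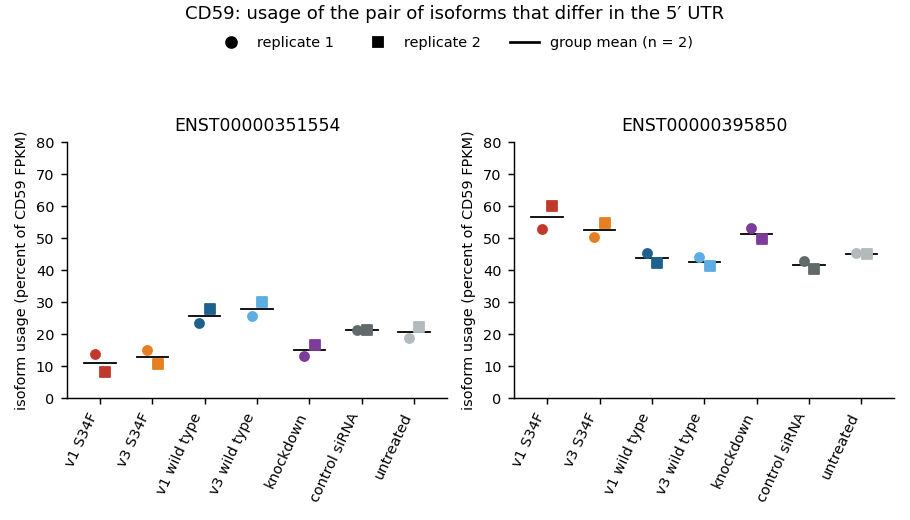
Usage of 2 CD59 isoforms in each library, as percent of CD59 FPKM (vertical axes, from 0); circles are replicate 1, squares replicate 2 and lines group means (n = 2). ENST00000351554 is at 8.27% to 15.0% in the 4 S34F libraries and at 23.5% to 30.1% in the 4 wild-type libraries, and ENST00000395850 is higher in all 4 S34F libraries than in all 4 wild-type libraries.

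Most other complement genes were below the filter. Of 50 other complement genes in the tables, 10 passed the filter: 2 of 17 early components and proteases, 0 of 6 terminal components, 5 of 14 soluble regulators and 3 of 13 membrane regulators and receptors. Terminal component genes, whose products act after C5, summed to at most 1.11 FPKM in any library. The highest were CLU (mean 775 FPKM), which encodes the fluid-phase inhibitor clusterin, C1QBP (373 FPKM), a largely mitochondrial protein that binds C1q, C1RL (12.3 FPKM), a C1R-like protease, CFD (12.2 FPKM), the factor D protease that cleaves factor B, and VTN (11.2 FPKM), vitronectin. Without the replicate block, none of the 10 passed the limma test in any of the 7 comparisons. At an unadjusted p under 0.05 there were 3 between S34F and wild type, 2 between knockdown and control siRNA, 2 between wild-type re-expression and knockdown and 0 in the other 4. Of all 14233 genes, the first 3 of these comparisons held 2266, 2689 and 2242 at that threshold. The median log2 difference of the 10 genes between S34F and wild type was −0.14, beside 0.02 over all genes.

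CFD was the nearest of these to the threshold. It held 9.15 and 6.30 FPKM in v1 S34F and 12.1 and 5.45 FPKM in v3 S34F, against 18.1 and 10.9 FPKM in v1 wild type and 18.5 and 14.8 FPKM in v3 wild type, a difference of −0.87 ± 0.24 on the log2 scale (adjusted p = 0.106). The ranges of the S34F and wild-type libraries overlapped, and CFD was lower with S34F in 4 of 4 pairs of the same construct and replicate number. With the replicate block, an alternative added after seeing the data for these genes, CFD passed (limma, adjusted p = 0.00728). The block called 2 of the 10 between S34F and wild type, CFD and C5AR1, beside 7.98% of all genes, 2 between knockdown and control siRNA, C1RL and VTN, beside 11.8%, and 1 between wild-type re-expression and knockdown, C1RL, beside 7.52%. It called 0 of the 10 in the other 4 comparisons.

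The gene outside the set with the profile most like each tested complement gene was found by Pearson's r of log2(FPKM + 1) over the 14 libraries. For C3 the 3 most alike were SLC23A2 (r = 0.894), LRRC40 (0.888) and CEP78 (0.887). For C5 it was STRN3 (0.910), for C1R SYT13 (0.937), for C1S ANAPC2 (0.957), for CFB UFSP1 (0.907), for CD46 SEC23A (0.933), for CD55 EIF3E (0.969) and for CD59 WNT9A (0.920). These are the highest of 14233 genes, and the points share the 7 groups and the replicate numbers that move C1R, C1S, C5, CFB and CD55, so the values are descriptions only.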

How the data were processed

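RNA-seq of 14 A549 libraries in 7 groups was analysed. The deposited FPKM values per isoform came from the authors; per the submitters' processing notes, the tools were Trimmomatic 0.30 and TopHat2 2.0.12 and the build GRCh37. The isoform estimator and its annotation: not given in the sources used here. The deposited coverage column, a signal, served only to estimate relative depth; without read counts, no counting intervals are given. Isoform FPKM was summed per gene. Groups were taken from sample titles. Of 14244 genes with a mean of at least 1 FPKM, 11 were dropped because at least 1 of their isoform estimates had a status other than OK, and 14233 were fitted as log2(FPKM + 1) in limma 3.58.1 (R 4.3.3) with an intensity trend, 1 mean per group and all libraries sharing 1 spread; p-values were Benjamini-Hochberg adjusted over all genes. A fold change on this scale understates that of low genes. Usage in percent (41727 isoforms with mean usage of 5% to 95%, and 15645 cassette exons from GENCODE release 29) was fitted likewise. On simulated data for S34F against wild type (14233 genes), 79% of changes of log2 size 1 and 96% of size 2 were recovered. The changes were put only into genes with a mean log2(FPKM + 1) above 2. Simulated libraries varied independently, unlike the same-numbered libraries here. The rates therefore do not cover lower genes such as CFB or the shared replicate differences.

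Same-numbered libraries pair by the data: the replicate 2 minus replicate 1 differences of all 21 pairs of groups correlated above 0.1 (0.160 to 0.571). Alternatives were the pseudocount, the filters, scaling, the replicate block and leaving out each library. The complement genes and the gene lists were chosen with earlier results of these data known, and exon usage was added after seeing the data. Text names the 9 genes, their isoforms of at least 10% mean usage or called, other complement genes called or among the 5 highest, and the genes most alike. CFD's library values, the CD46 42-base exon and the CD55 118-base exon were singled out after their values were seen. Some results on other features are not reported here.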

Additional observations from a re-analysis of the deposited data

How the results depend on the processing

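Of the complement genes, C5 with S34F kept its call under all 6 alternatives other than leaving out a library (adjusted p 0.000309 to 0.0295). The replicate block moved the count of genes called to 3 between knockdown and control siRNA, 1 between wild-type re-expression and knockdown and 3 between wild-type re-expression and control siRNA, against 0 without it. Leaving out 1 library gave 0 to 1 gene for S34F against wild type. For isoforms, S34F against wild type gave 2 at a gene mean of at least 5 FPKM and 2 with the block, 0 with mean usage of 1% to 99%, and 0 to 2 when leaving out a library, against 1. Knockdown against control siRNA gave 1 isoform at a gene mean of at least 5 FPKM and 1 with usage of 1% to 99%, against 0. Wild-type re-expression against knockdown gave 2 isoforms at a gene mean of at least 5 FPKM, 0 on an arcsine scale and 0 to 1 when leaving out a library, against 1. For exons, the arcsine scale gave 0 in knockdown against control siRNA (1 on the percent scale) and 1 in wild-type re-expression against knockdown (2 on the percent scale); leaving out a library gave 0 to 1 in both. No called difference changed sign. With 2 libraries a group, leaving one out leaves a group with 1, assumed to vary like the others. The cause of the other changes was not tested. Low levels limit CFI, CFB isoforms and the short C5 transcript.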

Other observations

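Among 25 acute-phase and inflammatory genes, whose products often rise together with C3 and CFB, 18 passed the filter. Between knockdown and control siRNA 1 of 18 passed, as against 2.85% of all genes: CEBPD, a transcription factor of the acute-phase response, rose. It stood at 15.1 and 16.4 FPKM in knockdown, against 9.19 and 10.6 FPKM in control siRNA, a difference of 0.63 ± 0.14 (adjusted p = 0.0425). The median log2 difference of the 18 genes was −0.11 between knockdown and control siRNA, beside −0.01 over all genes.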
